A study of Mus musculus with 24 samples.

Results

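The measurements described here are the read counts of 10 immediate early genes, *Fos*, *Fosb*, *Junb*, *Egr1*, *Egr2*, *Egr4*, *Arc*, *Npas4*, *Nr4a1* and *Dusp1*, among the 24079 genes counted in the striatum of rpS6P-/- mice and their wild-type littermates. The 10 genes were chosen by their symbols, with earlier results of these data known. Each of them had reads in all 24 libraries, from 96 (the lowest count of any member in any library) to 14048, and each passed the filter on low counts in all comparisons. In rpS6P-/- mice, called knockin below, the phosphorylated serines of the ribosomal protein S6 are replaced by alanines in the germline and therefore in every cell. Mice of either sex on a mixed C57Bl/6, Sv129 and ICR background were taken without any treatment, and ages are not given in the sources used here. The dorsal striatum (DS) and the nucleus accumbens (Acb) were dissected, the tissue of several mice was pooled for each replicate, and RNA was sequenced both from the heavy polysomal fractions of a sucrose gradient, where mRNAs carry many ribosomes, and from the whole lysate loaded on it.

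The 8 groups, each with 3 libraries, were wild-type and knockin heavy polysomal fractions of the Acb, wild-type and knockin whole lysates of the Acb, and the same groups in the DS. Libraries held 9280589 to 34703044 reads assigned to genes, with a median of 16678553. Markers of medium spiny neurons, the main neurons of both regions, summed to 3313 to 6195 CPM in the Acb and 3435 to 6529 CPM in the DS, so that the defining neurons of the striatum were well represented in both. These markers are shared by the regions and do not check the region label, and 7 of the 8 (3 higher and 4 lower in the Acb) differed between regions in each kind of RNA. CPM are the reads of a gene relative to all assigned reads of its library, with factors from the trimmed mean of M values (TMM). Since the knockin alters single residues, the genotype of a library could not be checked from gene counts.

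Immediate early genes are transcribed within minutes of a stimulus such as calcium entry or receptor signalling, from transcription factors that are already present in the cell, and their mRNAs are short-lived. In neurons they are used as a readout of recent activity. *Fos*, *Fosb* and *Junb* encode subunits of the transcription factor AP-1, *Egr1*, *Egr2* and *Egr4* encode zinc finger transcription factors, *Npas4* encodes a neuronal transcription factor that responds to calcium, and *Nr4a1* encodes an orphan nuclear receptor. *Arc* encodes a protein of dendrites and synapses that acts in the removal of AMPA receptors, and *Dusp1* encodes a phosphatase that turns off MAP kinases. In the striatum their transcription is driven by dopamine and glutamate through protein kinase A and the ERK cascade, acting on CREB and on serum response factor with its partners.

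The start sites of 8 of the 10 genes were found in a RefSeq table of promoters of GRCm38.p6, and the 250 bases before each start were searched. The letters TGACG, part of the cyclic AMP response element that CREB binds, were searched on both strands. All 8 genes held them in at least 1 window, whereas 17.77% of all 32851 windows and 19.79% of the 27025 genes did. The palindrome TGACGTCA, which contains TGACG on either strand, was found in *Dusp1* alone among these genes and in 1.546% of all windows. A CArG box, the motif of serum response factor, lay in the windows of *Egr2* alone and in 1.467% of all windows. TATAA, searched only on the strand of the gene, was found in 4 of the 8 genes and in 16.0% of all windows. A match describes letters in a window and is not a site shown to be bound. The stretches that hold TGACG are shown for 5 of these genes as examples with 1 to 4 copies of the motif, and for *Dusp1* with the palindrome, each 5′ to 3′ on the strand of its gene, with the motif or its complement CGTCA in capitals.
*Fos* (chr12:85473746-85473843, + strand): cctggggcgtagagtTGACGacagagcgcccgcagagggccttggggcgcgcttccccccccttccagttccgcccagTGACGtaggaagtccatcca
*Junb* (chr8:84978835-84978869, - strand): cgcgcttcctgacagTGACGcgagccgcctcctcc
*Egr4* (chr6:85513679-85513781, - strand): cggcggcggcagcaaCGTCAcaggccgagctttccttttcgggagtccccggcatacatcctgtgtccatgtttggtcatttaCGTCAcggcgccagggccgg
*Nr4a1* (chr15:101266598-101266825, + strand): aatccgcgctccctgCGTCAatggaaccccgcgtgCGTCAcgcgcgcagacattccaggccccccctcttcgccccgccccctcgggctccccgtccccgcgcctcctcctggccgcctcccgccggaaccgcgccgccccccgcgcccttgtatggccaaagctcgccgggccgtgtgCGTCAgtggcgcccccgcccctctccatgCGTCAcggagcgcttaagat
*Dusp1* (chr17:26508596-26508678, - strand): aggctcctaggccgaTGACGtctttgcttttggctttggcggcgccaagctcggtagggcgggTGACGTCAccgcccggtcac
These stretches overlapped 0 annotated exons and lay upstream of the start sites searched, from -144 to -47 for *Fos*, -121 to -87 for *Junb*, -192 to -90 for *Egr4*, -248 to -21 for *Nr4a1* and -206 to -124 for *Dusp1*, counted from that start site. For *Nr4a1* the start site searched lay inside the annotated span of the gene (chr15:101253902-101274795), so its stretch is not upstream of the whole gene.

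Levels between genes were compared as CPM per kilobase of exon. *Egr1* was the most abundant member in every library, at 89.7 ± 31.4 CPM per kilobase (SD, n = 24 libraries of all groups), above *Nr4a1* in 24 of 24 libraries. *Nr4a1* followed at 37.1 ± 9.03, *Arc* at 29.7 ± 13.5, *Junb* at 20.3 ± 7.18, *Dusp1* at 13.5 ± 3.91 and *Fos* at 11.1 ± 3.83 CPM per kilobase. Each of these exceeded the next in 16 to 23 of 24 libraries, counting *Fos* against *Egr2*. The 4 lowest, *Egr2* (6.49 ± 2.38), *Egr4* (6.33 ± 2.42), *Fosb* (6.15 ± 1.25) and *Npas4* (5.29 ± 2.52), lay within their spread of each other. *Egr1* was at the 95.97th percentile of 16239 genes on this scale and *Npas4* at the 54.07th, so that all members were measured at or above the middle of the range of genes expressed in this tissue.

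**Figure D1:**
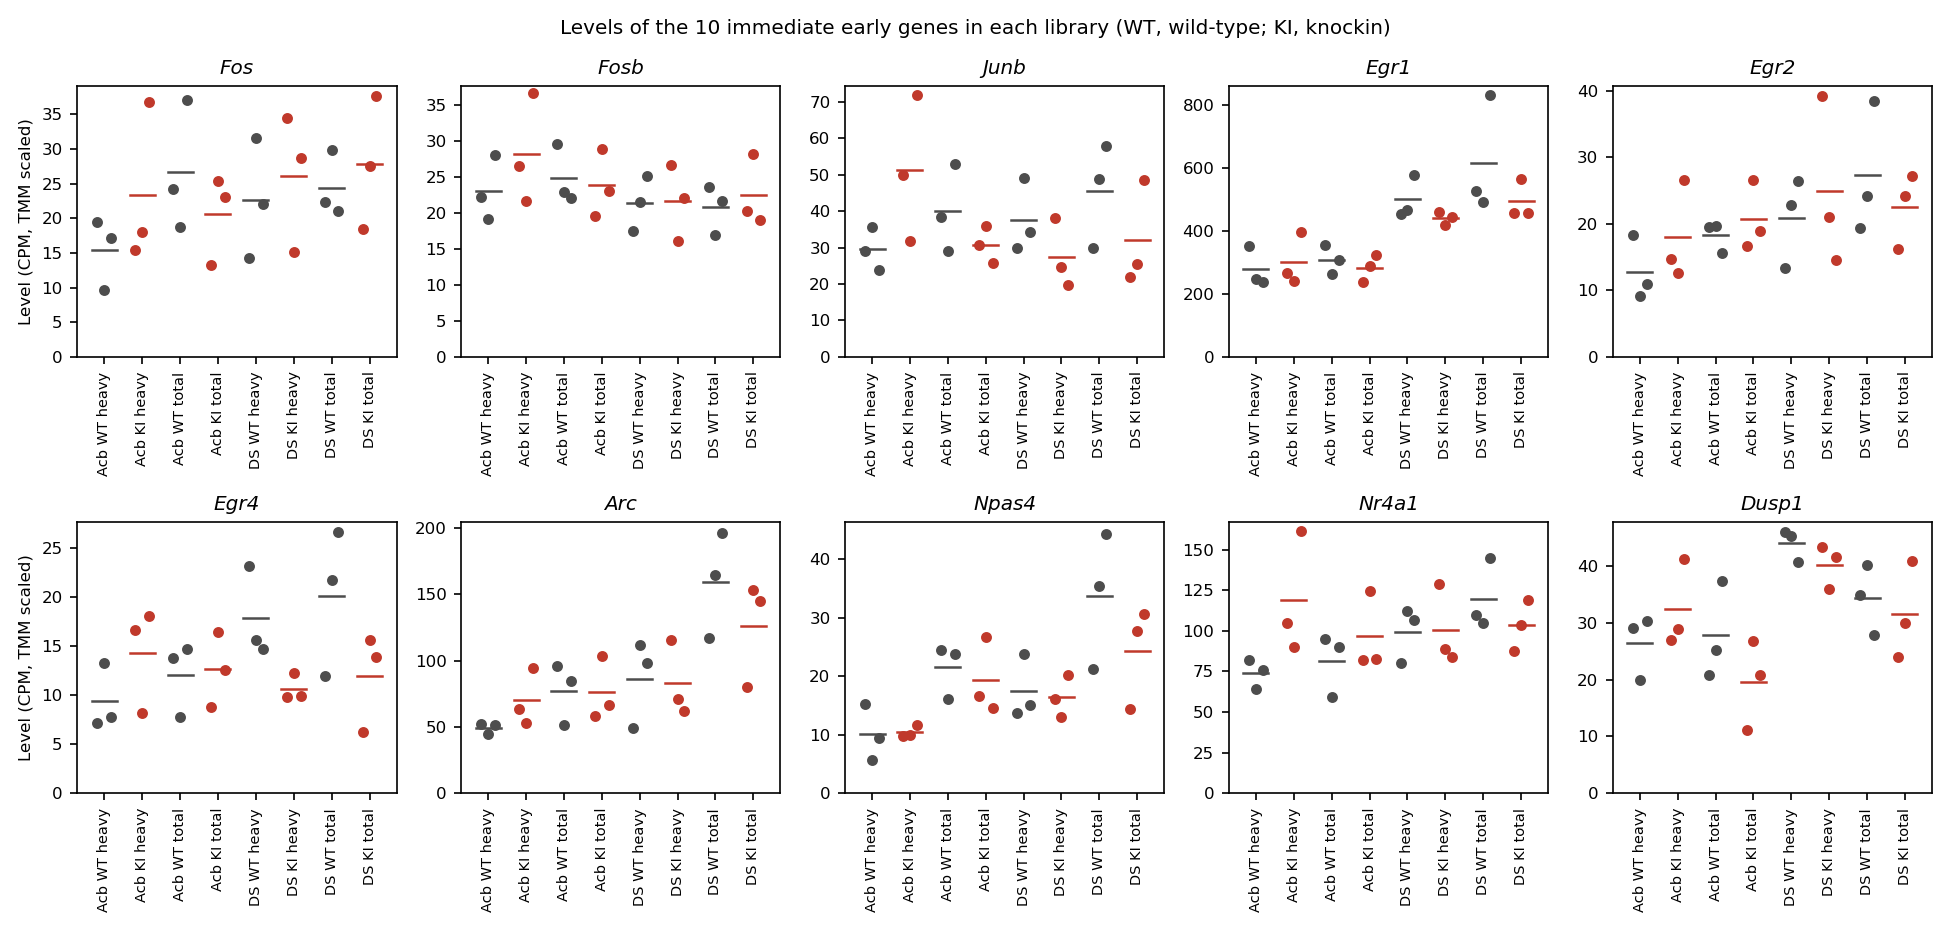
Level of each immediate early gene in every library, in CPM on a linear axis from 0, by region, genotype and fraction; points are libraries and lines are means of 3 libraries. *Egr1* in the 12 Acb libraries sits below all DS libraries of the same fraction, and in most other panels the groups overlap.

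Whether resting levels differ between the Acb and the DS was addressed by comparing regions within each kind of RNA, as the mean over genotypes. In both heavy polysomal fractions and whole lysates, 4 of the 10 genes passed the test, all lower in the Acb. *Egr1* and *Arc* fell in both kinds of RNA, and so did *Dusp1*, while *Npas4* passed in heavy polysomal fractions and *Nr4a1* in whole lysates. Of all genes tested, 22.6% were called in heavy polysomal RNA (12% lower in the Acb) and 19.6% in lysates (9.74% lower in the Acb). In bulk tissue, fewer cells of a type and less RNA per cell cannot be told apart.

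*Egr1* in heavy polysomal fractions ranged from 236 to 397 CPM in the Acb (median 256, 6 libraries) and from 418 to 577 CPM in the DS (median 457, 6 libraries). In whole lysates it ranged from 239 to 354 CPM in the Acb (median 297) and from 457 to 829 CPM in the DS (median 508). The regions did not overlap in either kind of RNA, which held for *Egr1* alone among the 10 members, and for 8.42% (heavy polysomal) and 10.2% (lysate) of all genes. The log2 fold change of *Egr1*, Acb over DS, was -0.69 ± 0.13 (SE; adjusted p = 0.000345, edgeR quasi-likelihood test with Benjamini-Hochberg adjustment) and -0.87 ± 0.09 (adjusted p = 5.43e-12, edgeR), respectively. In knockin libraries alone the *Egr1* difference in heavy polysomal fractions was -0.53 with an adjusted p of 0.0533 (edgeR), and in wild-type libraries alone it was -0.83 with an adjusted p of 0.00651 (edgeR).

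*Arc*, whose mRNA is carried into dendrites, ranged from 44.8 to 94.5 CPM in heavy polysomal fractions of the Acb (median 52.4) and from 49.1 to 116 CPM in those of the DS (median 84.6). In whole lysates it ranged from 51.3 to 103 CPM in the Acb (median 75.4) and from 80.3 to 196 CPM in the DS (median 149). The ranges overlapped in both kinds of RNA, with 3 of 6 Acb lysates below every DS lysate. The log2 fold change of *Arc* was -0.52 ± 0.18 (adjusted p = 0.0361, edgeR) in heavy polysomal fractions and -0.86 ± 0.13 (adjusted p = 2.21e-07, edgeR) in whole lysates. The call for *Arc* in heavy polysomal fractions was lost, with adjusted p values of 0.0620 to 0.152 (edgeR), when replicate 2 or 3 of wild-type Acb or DS, replicate 1 or 2 of knockin Acb, or replicate 1 of knockin DS was left out.

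*Dusp1*, the MAP kinase phosphatase, ranged from 19.9 to 41.3 CPM in heavy polysomal fractions of the Acb (median 29.0) and from 35.9 to 45.9 CPM in those of the DS (median 42.4), with 5 of 6 Acb libraries below all DS libraries. Its log2 fold change was -0.52 ± 0.14 (adjusted p = 0.00885, edgeR) in heavy polysomal fractions and -0.47 ± 0.17 (adjusted p = 0.0404, edgeR) in whole lysates. The call for *Dusp1* in whole lysates was lost, at 0.0558 to 0.177, without replicate 1 or 2 of wild-type Acb or DS, replicate 1 of knockin Acb, or replicate 2 or 3 of knockin DS. *Npas4*, the calcium-responsive factor, ranged from 5.71 to 15.3 CPM in heavy polysomal fractions of the Acb (median 9.87) and from 13.1 to 23.8 CPM in those of the DS (median 15.6), and 5 of 6 Acb libraries were below all DS libraries. Its log2 fold change was -0.71 ± 0.21 (adjusted p = 0.0152, edgeR) in heavy polysomal fractions and -0.45 ± 0.18 (adjusted p = 0.0742, edgeR) in whole lysates. For *Npas4* the first of these calls was lost without replicate 2 of wild-type DS (0.0576) or replicate 3 of knockin DS (0.0566), and the second value passed without replicate 2 of knockin Acb (0.0170), replicate 1 of wild-type DS (0.0184) or replicate 1 of knockin DS (0.0165).

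*Nr4a1*, the nuclear receptor, had a log2 fold change of -0.29 ± 0.11 in whole lysates (adjusted p = 0.0490, edgeR) and of -0.09 ± 0.15 in heavy polysomal fractions (adjusted p = 0.732, edgeR). The call for *Nr4a1* was lost (0.0860 to 0.209) without replicate 2 of wild-type Acb, 1 or 3 of knockin Acb, 3 of wild-type DS, or 2 or 3 of knockin DS. With DESeq2 neither *Nr4a1* (adjusted p = 0.121) nor *Dusp1* (adjusted p = 0.107) was called in whole lysates. Among the members that did not pass, *Egr2* had values of -0.59 ± 0.24 (adjusted p = 0.0744, edgeR) in heavy polysomal RNA and -0.32 ± 0.18 in lysates. *Egr2* passed in heavy polysomal fractions without replicate 1 of wild-type Acb (0.0211), 3 of knockin Acb (0.0155), 1 of wild-type DS (0.0419) or 3 of knockin DS (0.0339). As means over genotypes the AP-1 genes showed no common sign, with values of -0.35 and -0.13 for *Fos*, 0.25 and 0.21 for *Fosb* and 0.27 and -0.09 for *Junb* in heavy polysomal fractions and whole lysates, and *Egr4* had -0.25 and -0.29. In heavy polysomal RNA these means joined values of opposite sign for *Junb*, which was -0.34 in wild-type libraries alone (adjusted p = 0.407, edgeR) and 0.91 in knockin libraries alone (adjusted p = 0.0206, edgeR), and for *Egr4*, which was -0.92 (adjusted p = 0.0654, edgeR) and 0.43 (adjusted p = 0.312, edgeR). *Junb*, higher in the Acb, was the only member called there in knockin libraries alone, where *Arc* (-0.22), *Dusp1* (-0.29) and *Npas4* (-0.64) had adjusted p values of 0.564, 0.344 and 0.0753 (edgeR). The shares of all genes called in single genotypes are not given here, and tests of these differences between genotypes are given with the interactions. The median over the 10 members was -0.44 and -0.31, against 0.02 and 0.01 over all genes tested.

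Markers of other cells moved with the region. All 6 markers of cortical excitatory neurons were called lower in the Acb in both kinds of RNA, and their summed level was 65.3 to 209 CPM in the Acb and 741 to 1013 CPM in the DS, with none of the 6 at 0. Of 6 markers each, 5 of microglia and 4 of astrocytes were called higher in the Acb in both kinds of RNA, with summed levels of 150 to 274 CPM (microglia) and 946 to 1617 CPM (astrocytes) in the Acb and of 92.9 to 199 CPM and 569 to 970 CPM in the DS. Choroid plexus markers summed to 35.4 to 76.9 CPM in the Acb and 11.6 to 20.5 CPM in the DS, endothelial markers, none of them called, to 3.85 to 18.5 CPM and 3.96 to 11.2 CPM, and oligodendrocyte markers to 2849 to 5413 CPM and 2592 to 4563 CPM. In a group, at most 1 of the 6 choroid plexus markers was at 0. The part of these cells in the regional differences of the immediate early genes was not tested.

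The comparison of heavy polysomal fractions with whole lysates asks which of these mRNAs are loaded with many ribosomes, relative to all mRNAs of the sample. *Npas4* and *Arc* were lower in heavy polysomal fractions in both regions, and *Dusp1* was higher in the DS. As means over genotypes, the other members had no call in either region. Of all genes tested, 31.7% were called in the Acb (15% lower) and 37.2% in the DS (17.6% lower), so that 2 of 10 members in the Acb and 3 of 10 in the DS were not a larger share than among all genes. The main test was unpaired and treated the heavy polysomal libraries and lysates of a region as independent, although they share pools of mice. A single library of a pool was not left out on its own in this comparison: both the heavy polysomal library and the lysate of a pool of mice were.

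*Npas4* ranged from 5.71 to 15.3 CPM in heavy polysomal fractions of the Acb (median 9.87) and from 14.6 to 26.6 CPM in its whole lysates (median 20.3), with 5 of 6 heavy libraries below every lysate. In the DS it ranged from 13.1 to 23.8 CPM (median 15.6) in heavy polysomal fractions and from 14.4 to 44.4 CPM (median 29.3) in whole lysates, and the ranges overlapped. The log2 fold change of *Npas4*, heavy over lysate, was -1.01 ± 0.21 in the Acb (adjusted p = 0.000205, edgeR) and -0.75 ± 0.19 in the DS (adjusted p = 0.000918, edgeR). For *Arc* it was -0.41 ± 0.15 in the Acb (adjusted p = 0.0351, edgeR) and -0.74 ± 0.15 in the DS (adjusted p = 4.64e-05, edgeR). The Acb call of *Arc* was lost without pool 1 of wild-type (0.139), pool 3 of wild-type (0.0895) or pool 2 of knockin mice, where the value was -0.18 (adjusted p = 0.452, edgeR). In wild-type libraries alone the Acb value of *Arc* was -0.70 (adjusted p = 0.00582, edgeR) and in knockin libraries alone -0.13 (adjusted p = 0.757, edgeR), and a test of the difference is given with the genotypes. All 10 members had Acb values below 0 in wild-type libraries alone (median -0.45, 3 called), and 7 of 10 had values above 0 in knockin libraries alone (median 0.17, 2 called). The share and the median of all genes in these single-genotype fits are not given here, so the members are not set against them. *Npas4* was called in wild-type libraries alone and in knockin libraries alone, with -1.12 (adjusted p = 0.00459, edgeR) and -0.90 (adjusted p = 0.0269, edgeR). *Fos* was called lower in wild-type libraries alone, at -0.83 (adjusted p = 0.0195, edgeR) against 0.18 in knockin libraries alone, and *Junb* was called higher in knockin libraries alone, at 0.71 (adjusted p = 0.0416, edgeR) against -0.49 in wild-type libraries alone.

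*Dusp1* ranged from 35.9 to 45.9 CPM in DS heavy polysomal fractions and from 23.95 to 40.8 CPM in DS whole lysates, and 4 of 6 heavy libraries lay above every lysate. Its log2 fold change was 0.35 ± 0.14 in the DS (adjusted p = 0.0440, edgeR) and 0.31 ± 0.18 in the Acb (adjusted p = 0.216, edgeR). The DS call of *Dusp1* was lost at 0.0754 to 0.248 without pool 1 or 3 of wild-type or pool 1 or 2 of knockin mice. *Egr1* in the DS, at -0.23 ± 0.10 (adjusted p = 0.0759, edgeR), passed without pool 1 (0.0498) or 2 (0.0258) of wild-type mice. *Junb* and *Nr4a1* in the DS, at -0.24 ± 0.17 and -0.15 ± 0.12, passed without pool 1 of knockin mice, with values of -0.50 (0.0255) and -0.32 (0.0438). *Egr2* in the Acb, at -0.38 ± 0.20 (adjusted p = 0.152, edgeR), was -0.62 (0.0184) without pool 3 of knockin mice.

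The noncoding RNA *Bc1* made up 15.2 to 26.1% of lysate reads and 0.897 to 3.85% of heavy polysomal reads. With *Bc1* removed and libraries scaled by their totals, *Npas4* had log2 fold changes of -1.07 in the Acb and -0.84 in the DS, and *Arc* had -0.47 and -0.82, all 4 still called. In this fit *Dusp1* in the DS was 0.26 (adjusted p = 0.157, edgeR), so that its call was lost. *Egr1* in the DS was -0.32 (adjusted p = 0.0128, edgeR), so that a call was gained. The fit left out *Bc1* and the TMM factors together, so their parts in these changes cannot be told apart.

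**Figure D2:**
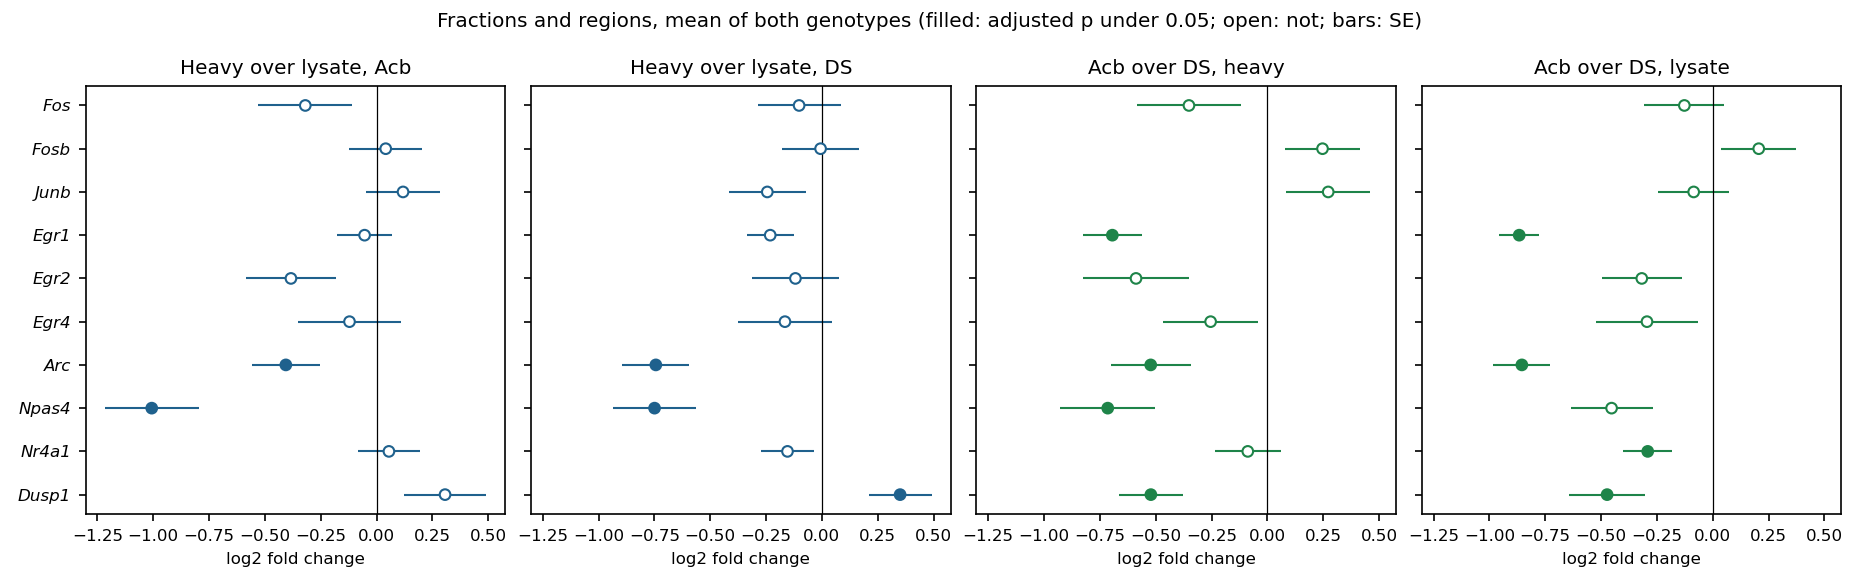
Log2 fold change of each gene between heavy polysomal fractions and whole lysates (blue) and between Acb and DS (green), on a linear log2 axis, as the mean over genotypes; bars are SE, and filled points have an adjusted p under 0.05. *Npas4*, *Arc*, *Egr1*, *Egr2*, *Egr4* and *Fos* lie left of 0 in all 4 panels. *Egr1* lies farthest left of all members between regions in whole lysates, at -0.87.

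The study asked whether the loss of S6 phosphorylation changes the abundance of mRNAs in whole lysates or in heavy polysomal fractions. With DESeq2 the paper called many more genes in heavy polysomal fractions of the Acb than of the DS. With Xtail it also called many more in the Acb for the ratio of heavy polysomal to lysate counts. The shares given here are those of the tests used here and not the paper's own calls. For the immediate early genes no difference between genotypes passed the test in any of the 4 strata with edgeR. The shares of all genes called were 0.0% in heavy polysomal fractions of the Acb, 0.0065% in its whole lysates, 0.044% in DS heavy polysomal fractions and 0.122% in DS whole lysates. At an unadjusted p under 0.05 there were 4, 0, 1 and 5 members, respectively, where 21.7%, 2.96%, 6.42% and 9.07% of all genes reached this. DESeq2, which gave an adjusted p to 7, 10, 5 and 3 members, called 2, 0, 0 and 0 of them, against 14.1%, 0.0065%, 0.297% and 2.02% of all genes given one.

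In Acb heavy polysomal fractions all 10 log2 fold changes, knockin over wild-type, were above 0, from 0.07 (*Npas4*) to 0.83 (*Junb*). Their median was 0.53 against -0.01 over all genes, of which 49.3% were above 0. Of 34 other immediate early genes, 20 were above 0, with a median of 0.12. *Junb*, the AP-1 subunit, had 29.1, 35.5 and 23.96 CPM in wild-type and 50.0, 31.8 and 71.7 CPM in knockin libraries. *Nr4a1* had 82.3, 64.4 and 76.1 CPM in wild-type and 105, 90.2 and 162 CPM in knockin libraries, and *Arc* had 52.0, 44.8 and 51.3 CPM in wild-type and 63.3, 52.8 and 94.5 CPM in knockin libraries. Knockin libraries lay above every wild-type library for *Nr4a1* and *Arc* and for no other member, while the genotypes did not overlap for 25.0% of all genes. For *Fos*, wild-type libraries had 19.5, 9.65 and 17.1 CPM and knockin libraries 15.5, 17.9 and 36.8 CPM, so that a single knockin library was high.

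The log2 fold changes were 0.83 ± 0.25 for *Junb* (unadjusted p = 0.00386, adjusted p = 0.112, edgeR), 0.72 ± 0.20 for *Nr4a1* (0.00271, adjusted p = 0.107, edgeR), 0.55 ± 0.20 for *Arc* (0.0155, adjusted p = 0.148, edgeR) and 0.64 ± 0.30 for *Egr4* (0.0485, adjusted p = 0.228, edgeR). The members called by DESeq2 were *Junb* (adjusted p = 0.0255, DESeq2) and *Nr4a1* (adjusted p = 0.0197, DESeq2). With no filter beyond 1 read, edgeR also called both, each with an adjusted p of 0.0324, and with all 24 libraries in one fit it called *Nr4a1* (0.68, adjusted p = 0.0320, edgeR). The shares of all genes that edgeR called in these alternative fits are not given here. The highest value of every member among knockin libraries was in replicate 3. Without that library, 8 of 10 log2 fold changes were above 0, with a median of 0.13, and *Junb* and *Nr4a1* had 0.49 (adjusted p = 0.449, edgeR) and 0.42 (adjusted p = 0.408, edgeR), whereas without any one other library 9 or 10 were above 0 and the median was 0.36 to 0.73. The summed level of markers of cortical excitatory neurons was 65.3 to 209 CPM in wild-type and 102 to 156 CPM in these knockin libraries, and that of astrocytes was 946 to 1398 and 1374 to 1617 CPM. Their part in the values of the immediate early genes was not tested.

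In whole lysates of the Acb, 7 of 10 members had log2 fold changes below 0, from -0.51 ± 0.27 (*Dusp1*) to 0.24 ± 0.17 (*Nr4a1*), with adjusted p values of 0.9996 by edgeR for each. *Dusp1* had 20.8, 25.2 and 37.3 CPM in wild-type and 11.1, 26.9 and 20.8 CPM in knockin lysates. None of the members separated the genotypes there, against 8.37% of all genes. In DS heavy polysomal fractions, values ranged from -0.72 ± 0.28 (*Egr4*) to 0.26 ± 0.28 (*Egr2*). *Egr4*, the zinc finger factor with the fewest reads of the members, had 23.2, 15.6 and 14.7 CPM in wild-type and 9.82, 12.2 and 9.93 CPM in knockin libraries, and was the only member without overlap between genotypes (11.1% of all genes; unadjusted p = 0.0146, adjusted p = 0.712, edgeR). Of these 10 values 6 were below 0, and all 10 were without replicate 1 of the knockin libraries, with a median of -0.21.

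In whole lysates of the DS, 8 of 10 members had values below 0, from -0.77 ± 0.28 (*Egr4*) to 0.17 ± 0.22 (*Fos*), with a median of -0.31 against -0.00 over all genes. The median was -0.12 without replicate 3 of the wild-type lysates and -0.11 without replicate 1 of the knockin lysates. *Egr1* had 525, 491 and 829 CPM in wild-type and 458, 565 and 457 CPM in knockin lysates. Its log2 fold change was -0.34 ± 0.12 (unadjusted p = 0.00525, adjusted p = 0.272, edgeR), and without replicate 3 of the wild-type lysates it was -0.06. *Arc*, *Egr4*, *Junb* and *Npas4* also had unadjusted p values under 0.05, with log2 fold changes of -0.35, -0.77, -0.52 and -0.49 and adjusted p values of 0.344 to 0.518 (edgeR). All of the members overlapped between genotypes here, where 13.6% of all genes did not. *Jund*, a further AP-1 subunit outside the 10, was called lower in these knockin lysates (-0.76 ± 0.17, adjusted p = 0.0451, edgeR).

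**Figure D3:**
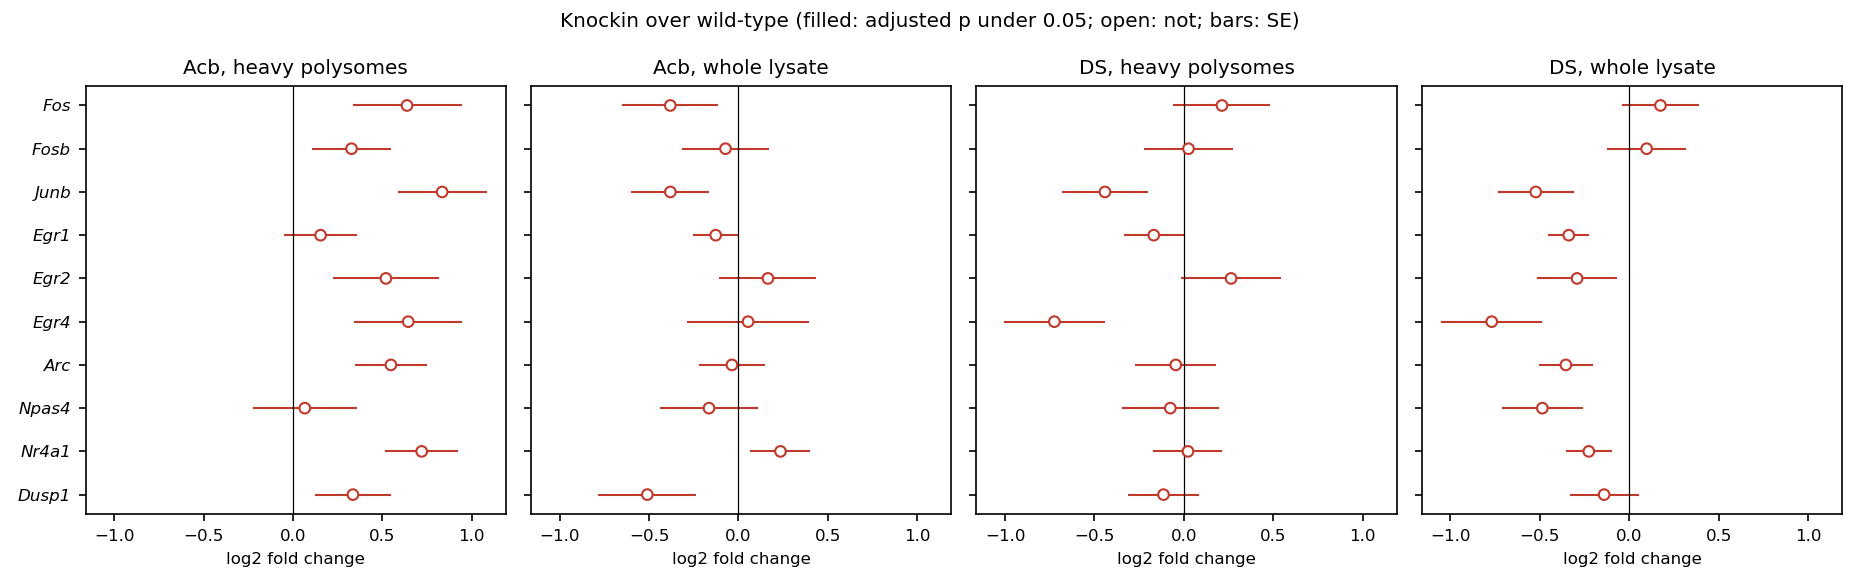
Log2 fold change of each gene, knockin over wild-type, in the 4 combinations of region and kind of RNA, on a linear log2 axis; bars are SE, and open points did not reach an adjusted p under 0.05. All 10 points lie right of 0 in heavy polysomal fractions of the Acb and 8 of 10 lie left of 0 in whole lysates of the DS, and no point is filled.

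The genotype by fraction interaction measures whether the ratio of heavy polysomal fraction to whole lysate differs between genotypes. No member was called in the Acb or the DS, where 0.0% and 0.0% of all genes were called by edgeR and 0.0% and 0.0% by DESeq2. In the Acb all 10 values were above 0, from 0.23 ± 0.42 (*Npas4*) to 1.21 ± 0.33 (*Junb*), and *Junb*, *Fos* and *Dusp1* had unadjusted p values of 0.000797, 0.0206 and 0.0270 (11.9% of all genes were under 0.05). Values above 0 were found for 50.82% of all genes and for 20 of 35 other immediate early genes. *Junb* had an adjusted p of 0.220 (edgeR). With each heavy polysomal library paired with its lysate as a replicate block, *Junb* was called, at 1.12 ± 0.29 (adjusted p = 0.0288, edgeR), as were 106 of all genes, and with no filter beyond 1 read its adjusted p was 0.0132 (edgeR). *Arc*, whose ratio of heavy to lysate passed in wild-type libraries and not in knockin libraries, had an interaction of 0.58 ± 0.30 (adjusted p = 0.445, edgeR). Without pool 3 of the knockin mice, 8 of the 10 values were above 0 and *Junb* was 0.75. In the DS the values ranged from -0.10 ± 0.34 (*Fosb*) to 0.52 ± 0.39 (*Egr2*), and none of the members had an unadjusted p under 0.05 (4.9% of all genes did).

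The genotype by region interaction was called by edgeR for none of the members in either kind of RNA, nor by DESeq2 among the 8 and 10 members it gave an adjusted p. Of all genes, edgeR called 0.00592% and 0.00611% and DESeq2 3.06% and 0.0%. In heavy polysomal fractions all 10 interactions, the knockin effect in the Acb minus that in the DS, were above 0, from 0.16 ± 0.42 (*Npas4*) to 1.38 ± 0.43 (*Egr4*; adjusted p = 0.150, edgeR). *Junb* had 1.29 ± 0.38 (adjusted p = 0.133, and 0.0160 with no filter beyond 1 read, edgeR) and *Nr4a1* 0.71 ± 0.29 (adjusted p = 0.274, edgeR), and these 3 had unadjusted p values under 0.05 (13.8% of all genes). The members' median in heavy polysomal fractions was 0.45, against -0.03 over all genes, of which 48.07% were above 0. Without replicate 3 of knockin Acb, *Fos* was -0.05 and *Egr2* -0.13. *Egr2* was -0.04 without replicate 3 of knockin DS. *Npas4* was -0.12 without replicate 2 of wild-type Acb and -0.16 without replicate 2 of wild-type DS. In whole lysates *Nr4a1* alone was under 0.05 unadjusted (0.46 ± 0.22, unadjusted p = 0.0383, adjusted p = 0.953, edgeR), where 5.11% of all genes were.

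The spread between replicates was large for these genes. The coefficient of variation over the 3 libraries of a group had its median over the 8 groups between 14.8% (*Egr1*) and 34.8% (*Fos*), and single groups reached 51.2% (*Egr2*, knockin heavy polysomal fractions of the DS). The highest library of a group exceeded the lowest by up to 2.69-fold for *Egr2* and *Npas4*, and by up to 1.69-fold for *Egr1* and *Fosb*. In each of the 8 groups the median coefficient of variation of the members, 22.0 to 31.3%, lay above that of the 11979 genes with at least 50 reads on average, 13.5 to 18.3%. In wild-type lysates of the DS all 10 members were above the median of all genes, and in wild-type heavy polysomal fractions of the DS 6 were.

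Because counting error is larger for genes with few reads, the spread was also read as the biological coefficient of variation of edgeR against its trend on abundance, in a fit of all 24 libraries with their group as the only term. The members had a median of 0.307 and all genes one of 0.183. *Arc* stood farthest above the trend, 2.10 times its value, which placed it at the 99.7th percentile of all genes, followed by *Fos* (1.78 times, 98.89th percentile) and *Junb* (1.77 times, 98.85th percentile). *Fosb*, with 0.998 times the trend, was the exception (62.38th percentile). In all, 9 of the 10 members lay above the trend, and 37.27% of the 11979 genes did.

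**Figure D4:**
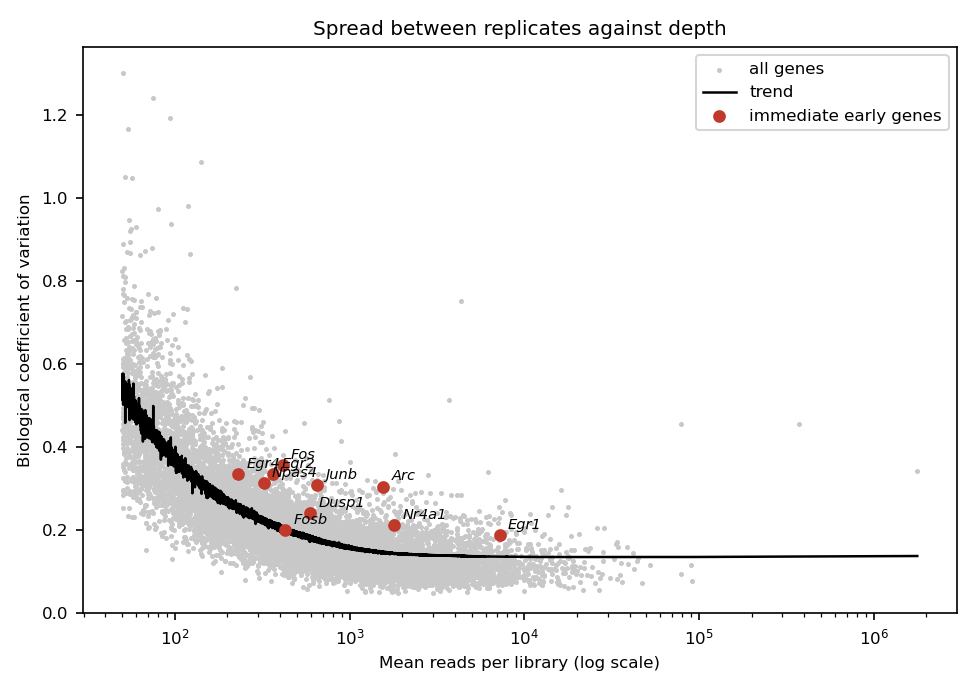
Biological coefficient of variation of each gene with at least 50 reads on average (grey) against its mean reads per library on a log axis, with the edgeR trend (line) and the immediate early genes (red). All members except *Fosb* lie above the line, and *Arc* lies 2.10 times above it at 1560 reads.

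The members deviated together. For each library, the log2 CPM of a gene minus the mean of its group was taken as its deviation. Over the 24 libraries all 45 pairs of members had a Pearson correlation of their deviations above 0, from 0.12 (*Fosb* and *Egr4*) to 0.90 (*Arc* and *Nr4a1*), with a median of 0.52. These are descriptions over libraries that share groups, scaling and, in pairs, their mice, and no share for pairs of other genes is given beside them. *Nr4a1* followed the mean of the other members most closely (0.91), next to *Arc* (0.90), and *Egr4* the least (0.44). The median over pairs was 0.54 in the 12 heavy polysomal libraries, where 39 pairs were above 0, and 0.58 in the 12 lysates, where 43 were, and it stayed between 0.47 and 0.56 when any single library was left out.

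All 10 members were above the mean of their group in replicate 3 of the knockin heavy polysomal fractions of the Acb, by 0.47 on average on the log2 scale, and in replicate 2 of the knockin lysates of the Acb, by 0.37. All 10 were below it in replicate 2 of these heavy polysomal libraries (mean deviation -0.36) and in replicate 1 of the knockin lysates of the DS (-0.43). The mean deviation of a heavy polysomal library and that of its lysate had a Pearson correlation of -0.16 (Spearman's rho -0.23, 12 lysates, 6 with the same sign), and of 0.14 without the 2 lysates farthest from the median. Among single members this correlation between fractions was highest for *Egr1* (0.60) and lowest for *Egr4* (-0.58), and over all genes its median was 0.01.

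**Figure D5:**
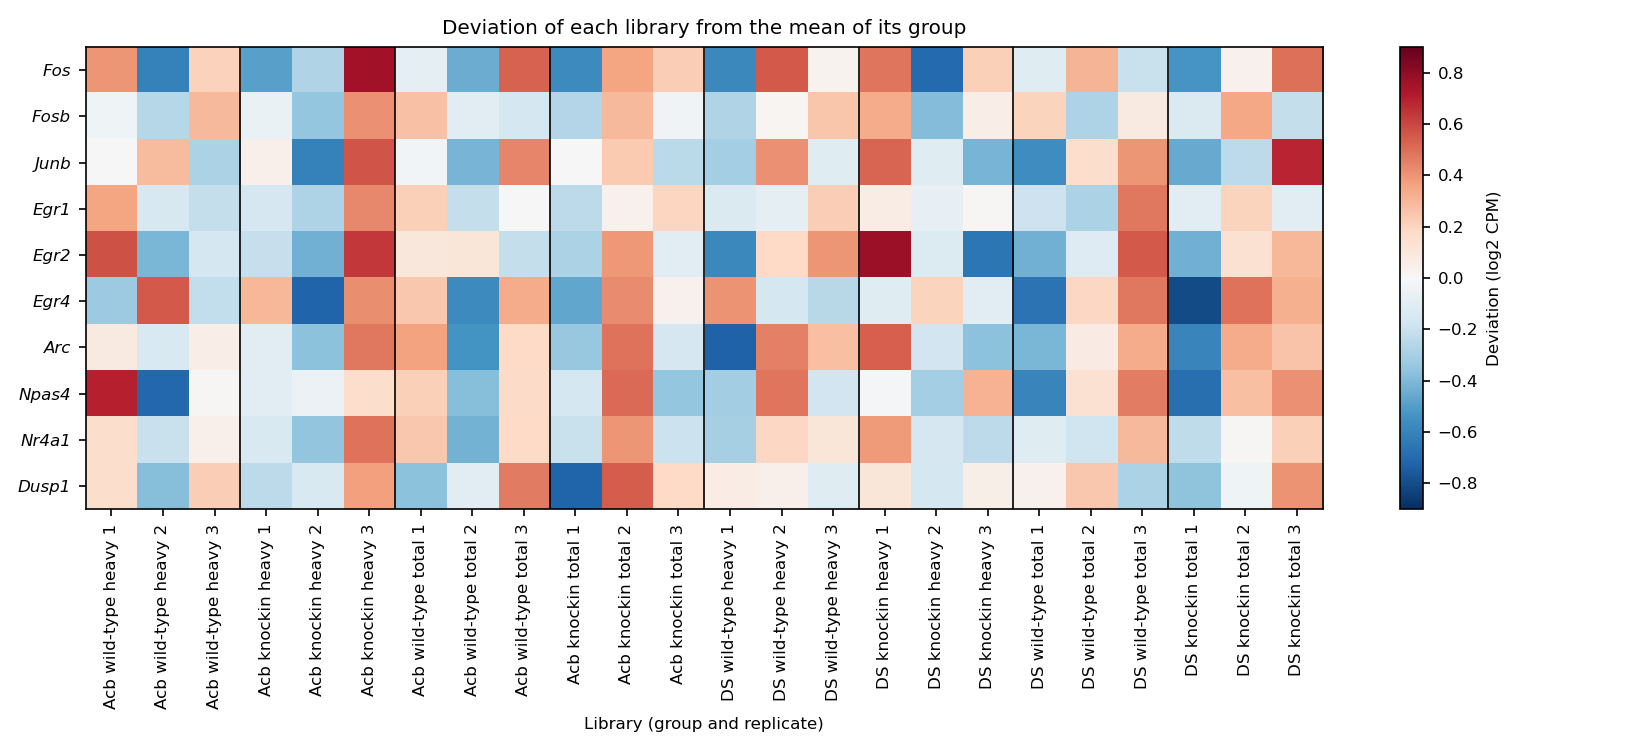
Deviation of each gene from the mean of its group on the log2 scale (colour, red above and blue below) in the 24 libraries, with vertical lines between groups. Whole columns are red in replicate 3 of the knockin heavy polysomal fractions of the Acb and blue in replicate 1 of the knockin lysates of the DS.

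Among 11969 further genes, those whose deviations were most like the mean of the members over the 24 libraries were *Mief2* (Pearson correlation 0.89), *Rsrp1* (0.86), *Luc7l* (0.79), *Tnip2* (0.79), *Fam65a* (0.78), *Trim3* (0.78), *Prpf39* (0.78), *Slc20a1* (0.77), *Clip1* (0.75) and *Mtcl1* (0.75). None of these 10 is in a list of activity-regulated genes used here. Of 29 other immediate early genes with enough reads, 26 had correlations above 0, with a median of 0.31 and the highest for *Tiparp* (0.68), and their summed level had one of 0.71, while the median over all genes was -0.02. Correlations of the members' mean deviation with other measures of a library were -0.29 for its assigned reads (-0.16 in the 12 heavy polysomal libraries and -0.52 in the 12 lysates) and -0.54 for the summed markers of endothelial cells (-0.17 and -0.75). These endothelial sums were low, at 3.85 to 18.5 CPM in the Acb and 3.96 to 11.2 CPM in the DS. For markers of cortical excitatory neurons the correlation was 0.36 (0.32 and 0.39). It was -0.22 (-0.34 and -0.06) for oligodendrocytes, -0.18 (-0.43 and 0.15) for microglia and -0.18 (-0.33 and 0.07) for medium spiny neurons. Astrocytes had -0.06 (0.18 and -0.50) and choroid plexus -0.007 (0.32 and -0.15). The noncoding RNA *Snhg11*, chosen after its values were seen, had 0.67 (0.79 and 0.55). Of other noncoding RNAs, *Miat* had 0.51, *Meg3* 0.50, *Rian* 0.46, *Malat1* 0.21, *Bc1* -0.0009 and *Neat1* -0.43. The part of depth, of other cells and of noncoding RNA in the shared deviations was not tested.

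The other genes of the pathway were read by lists, beside the shares of all genes called, which between regions were 22.6% (12% lower in the Acb) in heavy polysomal RNA and 19.6% (9.74% lower) in lysates, and between heavy polysomal RNA and lysates 31.7% (15% lower) in the Acb and 37.2% (17.6% lower) in the DS. Of the 34 other immediate early genes tested between regions, 12 were called lower and 1 higher in the Acb in heavy polysomal fractions, and 10 lower and 0 higher in whole lysates. Those with the lowest adjusted p in heavy polysomal fractions were *Nr4a2* (-3.73 ± 0.21), a nuclear receptor related to *Nr4a1*, *Dusp6* (-1.11 ± 0.13), a phosphatase of ERK, *Klf10* (-1.26 ± 0.16) and *Egr3* (-0.68 ± 0.11). Of 15 delayed activity-regulated genes, 9 were called lower and 2 higher in heavy polysomal RNA and 7 lower and 2 higher in whole lysates, including *Bdnf* (-2.74 ± 0.21), the neurotrophin, *Nrn1* (-2.72 ± 0.18), *Rgs4* (-1.03 ± 0.12) and, in the other direction, *Scg2* (1.44 ± 0.14) in heavy polysomal fractions. The 6 markers of cortical excitatory neurons had median log2 fold changes of -3.11 in heavy polysomal RNA and -3.74 in lysates, and their part in these values was not tested. Between heavy polysomal fractions and lysates the 35 (Acb) and 34 (DS) other immediate early genes were called in both directions, 5 higher and 3 lower in the Acb and 7 higher and 6 lower in the DS, with *Rgs2* at 0.75 ± 0.10 and *Per1* at -0.84 ± 0.13 in the Acb.

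Against the same shares of all genes, of the 15 transcription factors and co-activators that act upstream, 6 had lower and 2 had higher levels in Acb heavy polysomal fractions than in lysates, as did 7 and 1 in the DS. In the DS *Mkl1* and *Mkl2*, the partners of serum response factor, had values of -1.47 ± 0.15 and -1.07 ± 0.10, and *Crebbp*, the co-activator of CREB, had -1.55 ± 0.18. Between regions, 2 of them were lower in heavy polysomal fractions of the Acb and 5 in its whole lysates, with *Mef2c* at -1.34 ± 0.08 in lysates. Of 14 genes of the ERK cascade, 5 were higher and 4 lower in heavy polysomal fractions of the Acb than in lysates, and 5 higher and 3 lower in the DS, where *Rasgrf2*, an exchange factor for Ras, had -1.27 ± 0.13. Between genotypes, none of these pathway lists held a called gene in any of the 4 strata except *Jund* among the other immediate early genes.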

How the data were processed

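The values used are raw counts per gene that the authors deposited, not normalized. Stranded, polyA-selected libraries were aligned to mm10 with TopHat 2.0.13 on Bowtie 2.2.3, and reads were counted by HTSeq 0.6.1p1. A gene needed at least 15 reads in total in a comparison. Comparisons used edgeR 4.0.16 in R 4.3.3 (TMM, quasi-likelihood F test with legacy settings, Benjamini-Hochberg adjustment, cutoff 0.05) on the libraries compared, and SE is the log2 fold change divided by the square root of F. DESeq2 1.42.0 was an alternative. CPM values carry TMM factors of all 24 libraries, and deviations use log2 CPM with a prior count of 2. Heavy polysomal libraries and lysates were matched through the study's methods, which take both from the same pooled mice. Correlations of residuals within these 12 pairs were -0.0376 to 0.0743, 0 of them above 0.1. The main tests between fractions and of the genotype by fraction interaction did not use the pairs and treated the libraries of a region as independent. The pairs entered as the replicate block, an alternative, and where a pool was left out. Since replicates are pools of mice, p-values measure the spread between pools. Exon lengths came from GENCODE M21, positions and promoters from RefSeq on GRCm38.p6, and *Arc* and *Egr1* promoters were not used here. The members, the gene lists and the tests were chosen with earlier results of these data known. Genes named outside the 10 are, per list and comparison, at most the 4 called with the lowest adjusted p, and the 10 with at least 50 reads most correlated with the members. Some noncoding RNAs are named as well. Scripts were tested on simulated data.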

Additional observations from a re-analysis of the deposited data

How the results depend on the processing

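The number of members called was recomputed under DESeq2's test and size factors, other filters, all 24 libraries in one fit, a replicate block, *Bc1* removed, single genotypes and each library or pool left out, and, chosen after seeing the data, a length trend removed and bias-adjusted deviances. The shares of all genes called under most of these alternatives are not given, so the counts of members are not set against them. Between genotypes in heavy polysomal fractions of the Acb, 0 became 2 with DESeq2, 2 with no filter beyond 1 read and 1 with all 24 libraries in one fit. For the genotype by fraction interaction in the Acb, 0 became 1 with no filter and 1 with the replicate block that pairs each lysate, and for the genotype by region interaction in heavy polysomal fractions 0 became 1 with no filter. Between heavy polysomal fractions and lysates, 2 in the Acb became 1 with all 24 libraries, and 3 in the DS became 1 in knockin libraries alone. Between regions, 4 in heavy polysomal fractions, all lower in the Acb, became 1 in knockin libraries alone, which was *Junb*, higher in the Acb and none of the 4, and 4 in whole lysates became 2 with DESeq2, filterByExpr or knockin libraries alone. With each library or pool left out, these counts ranged from 1 to 3 and 2 to 4 between fractions (Acb and DS), and from 2 to 5 between regions in either kind of RNA; they stayed at 0 for genotypes and interactions. The replicate block changed no other count of members beyond 1.5 times. Of 2023 single values under alternatives, 1938 kept their side of the cutoff and direction of calls, 54 lost and 31 gained a call, and 0 called values changed sign; 112 values not called changed sign. The SE of the genotype differences was 0.12 to 0.34 on the log2 scale with 3 pools per group, and differences of that size were not detectable. The cause of these changes was not tested.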
